A study of Mus musculus with 126 samples.

Results

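Read counts of olfactory receptor genes were followed in mouse embryonic stem cells. The set holds the 39 genes whose symbol is Olfr followed by a number and whose read counts summed to at least 10 over 8 RNA-seq libraries, of 1122 Olfr genes in a table of 23420 genes. Of the others, 886 had no read in any library and 197 had sums of 1 to 9. The 39 genes held 2785 of the 3273 reads of the family, 85.1%. Because the summed count chose them, their levels are a description, and a gene without reads in DMSO could only enter the set through reads in another group. Counts of genes called in a test are therefore read beside the same counts over all 17936 genes with a summed count of at least 10, except where stated.

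The libraries came from J1 embryonic stem cells, either wild type or lacking the DNA methyltransferases Dnmt1, Dnmt3a and Dnmt3b (Dnmt1-/-, Dnmt3a-/-, Dnmt3b-/-, the triple knockout or TKO). Both genotypes grew in serum and leukaemia inhibitory factor on gelatin, and received Trichostatin A (TSA), an inhibitor of histone deacetylases, at 5 ng/µl, or 0.0033% DMSO, its solvent, for 36 h. That gives 4 groups with 2 libraries each, described as biological replicates in the series' design text. The other 118 of the 126 samples of the series are assays of chromatin and of transcription factor binding and were not analysed here.

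Olfactory receptors are G protein-coupled receptors in the cilia of olfactory sensory neurons, and their genes form the largest gene family of the mouse genome. They lie in large arrays on many chromosomes. A mature sensory neuron transcribes a single receptor gene from a single allele and keeps the rest of the family in silent heterochromatin, and outside the nose nearly all of these genes are silent. DNA methylation and histone deacetylation are textbook features of silent chromatin, and the question addressed was whether TSA, the TKO or both raised receptor genes that are normally silent, singly and as a summed count.

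Library totals ran from 13280631 to 15542527 reads in genes, so that 3 reads, the limit that a count of 0 allows, correspond to 0.182 to 0.244 CPM in a library. CPM are counts divided by the library total in units of 1e+06 reads, after scaling with TMM factors, and such limits cover counting error only. Differences were tested with edgeR's quasi-likelihood test, 1 fit of 4 group means over all 8 libraries, and a gene was called at a Benjamini-Hochberg adjusted p below 0.05 over all genes tested. As a check of the labels, Dnmt1 was at 429.5 to 467.4 CPM in wild type DMSO and 126.1 to 135.1 CPM in TKO DMSO, Dnmt3a at 186.7 to 237.3 against 26.0 to 27.1 CPM and Dnmt3b at 590 to 600 against 43.8 to 46.4 CPM. Stem cell markers (8 genes such as Pou5f1 and Nanog) summed to 3470 to 3834 CPM in wild type DMSO and 4357 to 4783 CPM in TKO DMSO, and to 1931 to 2300 CPM in the 4 TSA libraries.

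The sequence around the annotated start of 4 of these genes is shown first, because the genes differ in which condition raised or lowered them. The windows are RefSeq's on GRCm38.p6 (mm10), 250 bases before to 50 bases after the annotated gene start, 5′ to 3′ on the strand of the gene, with each CpG, the dinucleotide that DNA methyltransferases modify, in capitals. Olfr815 (chr10:129902677-129902976, minus strand) and Olfr787 (chr10:129462428-129462727, plus strand) rose with TSA in both genotypes and have no CpG in the window. Olfr307 (chr7:86336345-86336644, minus strand), the only member called in TKO against wild type in DMSO, has 5, of which 3 lie before the start and 2 after it. Olfr985 (chr9:40127990-40128289, minus strand), which fell with TSA, has 1 before the start and 1 after it. In Olfr815, Olfr787 and Olfr307 the annotated start is an ATG, the start codon, so their windows hold the start of the coding sequence and may lie away from the promoter.
Olfr815: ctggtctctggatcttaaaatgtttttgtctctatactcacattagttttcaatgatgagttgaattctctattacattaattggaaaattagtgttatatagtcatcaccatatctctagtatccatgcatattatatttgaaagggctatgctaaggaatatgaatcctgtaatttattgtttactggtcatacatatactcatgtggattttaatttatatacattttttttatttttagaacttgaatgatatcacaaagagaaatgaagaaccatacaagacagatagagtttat
Olfr787: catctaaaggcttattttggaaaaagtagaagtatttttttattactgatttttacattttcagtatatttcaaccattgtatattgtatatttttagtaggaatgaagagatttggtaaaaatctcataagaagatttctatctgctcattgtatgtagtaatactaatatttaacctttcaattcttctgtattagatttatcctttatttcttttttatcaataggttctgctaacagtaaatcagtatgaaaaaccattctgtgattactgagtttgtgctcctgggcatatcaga
Olfr307: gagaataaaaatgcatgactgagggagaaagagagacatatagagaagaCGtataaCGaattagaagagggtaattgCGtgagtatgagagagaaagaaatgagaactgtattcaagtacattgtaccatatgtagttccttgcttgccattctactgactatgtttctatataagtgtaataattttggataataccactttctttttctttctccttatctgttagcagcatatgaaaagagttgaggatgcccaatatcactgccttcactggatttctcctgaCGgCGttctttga
Olfr985: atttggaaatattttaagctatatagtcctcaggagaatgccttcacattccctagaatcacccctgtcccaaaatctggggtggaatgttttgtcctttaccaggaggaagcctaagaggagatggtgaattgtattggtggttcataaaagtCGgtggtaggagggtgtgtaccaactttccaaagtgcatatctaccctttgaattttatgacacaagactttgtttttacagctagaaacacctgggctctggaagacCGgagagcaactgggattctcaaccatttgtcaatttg

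A window was found by symbol for 35 of the 39 genes. The annotated start was an ATG in 25 of the 35 (71.4%), as in 72.4% of all Olfr windows and 5.83% of all windows in the RefSeq table, so the receptor windows and the rest of the table are not placed alike on their genes. Olfr376, Olfr658, Olfr329-ps and Olfr1372-ps1 were not matched. The table's gene start equalled the RefSeq start in 34 of the 35, and in Olfr701 it lay 15 bases downstream. No CpG was found in 13 of the 35 windows, 1 to 3 in 20, and more only in Olfr307 with 5 and Olfr1349 with 6. Unlike Olfr307, Olfr1349 was not called in TKO against wild type in DMSO (edgeR adjusted p = 0.159). The median was 1 CpG a window, beside 1 over all 948 Olfr windows and 7 over all 32851 windows in the RefSeq table. The observed to expected CpG ratio had a median of 0.111 in the members, 0.107 in all Olfr windows and 0.384 in all windows. The members' medians were thus close to those of the family at large. Among the 11 of these windows whose gene rose with TSA in TKO, 5 had no CpG and the median was again 1.

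Short motifs were searched on both strands of the same windows. GGGCGG, a binding motif of Sp1, was in 0 of the 35 member windows, in 1.05% of Olfr windows and in 35.7% of all windows. CACGTG (Max) was in 2.86%, 2.11% and 7.15%, GCGCATG (Nrf1) in 0, 0.105% and 3.91%, CCGGAAG (Gabpa) in 0, 0 and 8.86%, and GCCATNTT (Yy1) in 2.86%, 4.75% and 6.05%. TAATTA, a homeodomain motif known from olfactory receptor promoters, was in 17.1% of member windows, 18.6% of Olfr windows and 5.29% of all windows. CCCNNGGGA, a motif of Ebf factors, was in 4 member windows (11.4%, those of Olfr147, Olfr983, Olfr1349 and Olfr287), in 2.53% of Olfr windows and in 6.56% of all windows. None of these motifs contains another. A match is a run of letters, and no binding was measured here.

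The gene models bear on what could be counted. Of the 39 members, 30 have 1 exon and 30 have an exon length that is a multiple of 3, as do 934 of all 1122 Olfr genes, so most lengths are coding lengths and reads from untranslated exons outside the model were not counted. Exon lengths ran from 912 to 3063 bases. None of the members shares exon bases with another gene and none lies inside another gene's span, whereas 26 of all Olfr genes overlap an exon. The names of 2 members, Olfr1372-ps1 and Olfr329-ps, mark them as pseudogenes. Olfactory receptor genes resemble each other, how the counting treated reads with several matches is not given in the sources used here, and reads could have been placed on a near copy.

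**Figure D1:**
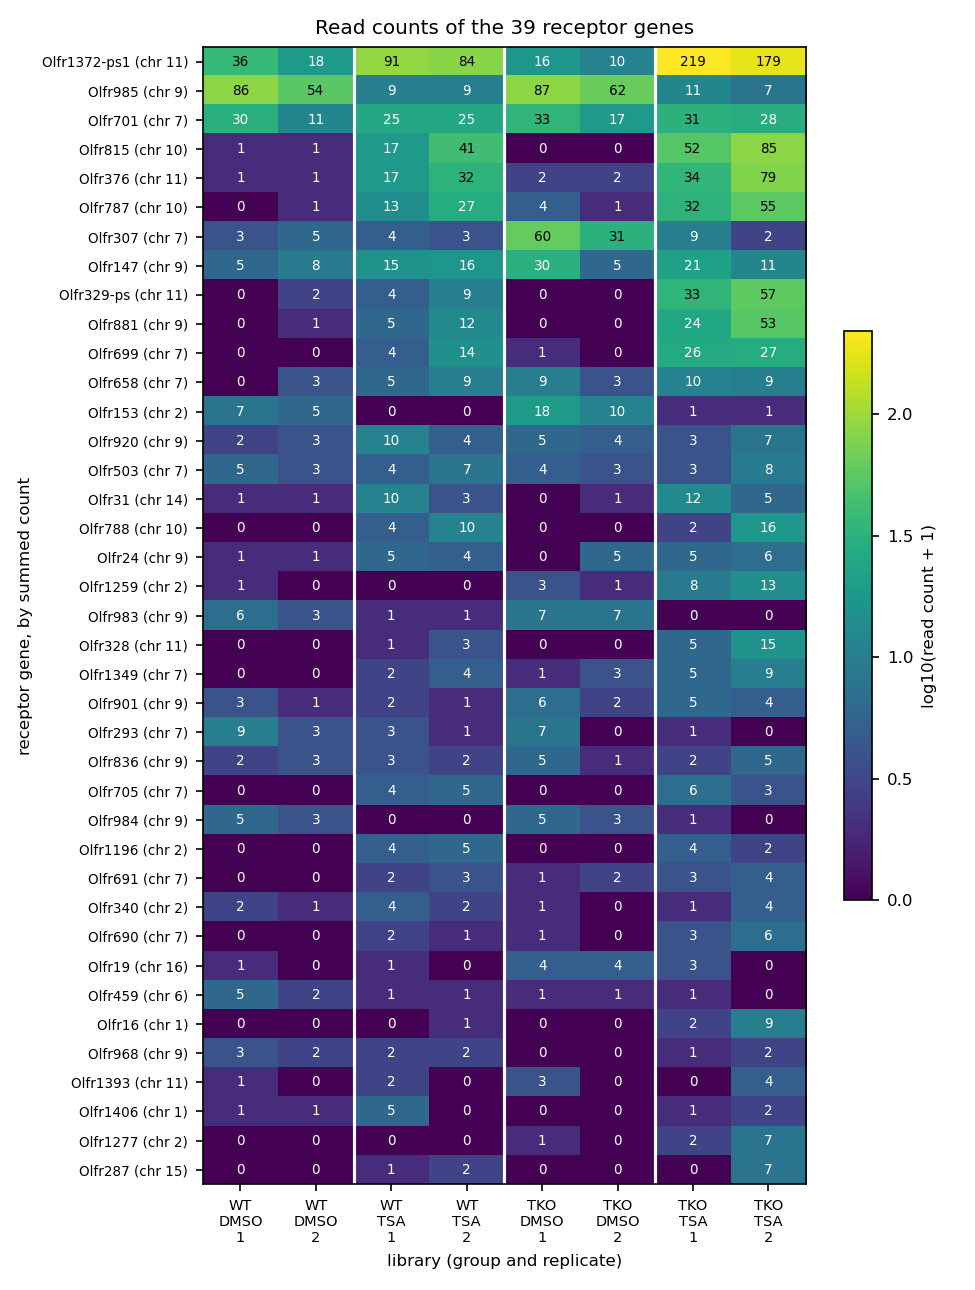
Read counts of the 39 receptor genes (vertical axis, ordered by summed count) in the 8 libraries (horizontal axis), printed in each cell and coloured by log10(count + 1). Most cells hold fewer than 10 reads, Olfr815, Olfr376 and Olfr787 are dark in the 4 DMSO libraries and bright in the 4 TSA libraries, and Olfr985 shows the opposite.

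Levels were low throughout. Summed counts over the 8 libraries ran from 10 to 653 with a median of 25, beside a median of 1782 over all genes tested, and 9 members had 100 or more. The 3 genes of highest sum, Olfr1372-ps1, Olfr985 and Olfr701, held 36.0% of the family's reads. In wild type DMSO 11 members had no read, 13 had 1 to 3 and 15 had more. At the edge of the set, Olfr1277, Olfr1393, Olfr1406 and Olfr287 had 10 reads and were taken, while Olfr152, Olfr45 and Olfr874 had 9 and were not. On both sides of the threshold the genes differed in where their reads lay. Olfr152 had 8 of its reads in TKO TSA and Olfr1277 had 9 there, whereas Olfr45 had 3 reads in wild type DMSO, 2 with TSA, 4 in TKO DMSO and none with TSA, and Olfr1393 had 1, 2, 3 and 4.

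Olfr985, a gene of the large chromosome 9 array, held the largest share of the family's reads with DMSO in wild type cells, 34.7%. It had 86 and 54 reads in wild type DMSO, 87 and 62 in TKO DMSO, 9 and 9 in wild type TSA, and 11 and 7 in TKO TSA. Both DMSO groups were high and both TSA groups were low, without overlap, and the genotypes did not separate. Per length, its mean level was 4.74 CPM per kilobase of exon (RPKM) in wild type DMSO and 4.71 in TKO DMSO, against 0.518 and 0.527 with TSA.

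Summed over all 1122 genes, the family had more reads with TSA in both genotypes. The sums were 252 and 151 reads with DMSO and 351 and 427 with TSA in wild type cells, and 364 and 209 with DMSO and 679 and 840 with TSA in TKO cells. In CPM the means were 15.2 ± 4.13 (SD, n = 2), 25.1 ± 5.32, 20.1 ± 6.88 and 49.0 ± 4.64. Wild type TSA lay 1.65-fold and TKO TSA 2.44-fold above its own DMSO group, and in each genotype both TSA libraries were above both DMSO libraries. TKO DMSO was 1.33-fold above wild type DMSO with overlapping libraries, a difference within the spread of replicates, and TKO TSA was 1.95-fold above wild type TSA without overlap. TKO TSA was 3.23-fold above wild type DMSO. No p is given, because 2 libraries against 2 cannot go below 0.33 in an exact permutation test.

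One gene carried a large part of these sums. Olfr1372-ps1 made up 13.4% of Olfr reads with DMSO and 22.5% with TSA in wild type cells, and 4.54% with DMSO and 26.2% with TSA in TKO cells. Without it the TSA ratios were 1.48 in wild type and 1.88 in TKO, and the groups still did not overlap. The fall of Olfr985 worked in the other direction, since its share dropped from 34.7% to 2.31% in wild type and from 26.0% to 1.19% in TKO. The 1083 genes outside the set, each with at most 9 reads in all, summed to 1.83 ± 0.974 CPM with DMSO and 4.94 ± 1.05 with TSA in wild type cells, and 2.82 ± 0.779 with DMSO and 6.66 ± 0.179 with TSA in TKO cells (SD, n = 2). Thus the TSA ratios were 2.70 and 2.37 in genes that no single gene dominates.

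**Figure D2:**
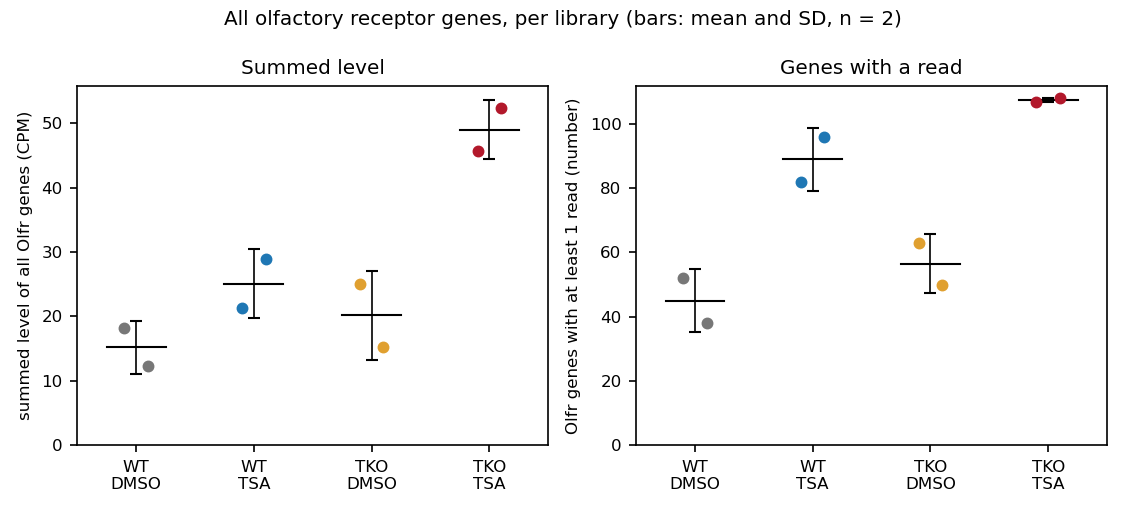
Summed level of all Olfr genes in CPM (left) and number of Olfr genes with at least 1 read (right) in each library, with the mean and SD of 2 libraries. Both TSA groups lie above the DMSO group of the same genotype, and TKO TSA is the highest at 45.8 and 52.3 CPM.

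More receptor genes had a read after TSA. At least 1 read was found for 52 and 38 genes with DMSO and 82 and 96 with TSA in wild type cells, and 63 and 50 with DMSO and 107 and 108 with TSA in TKO cells. Thinned to the smallest library total the expected numbers were 48.6 and 38, 76.8 and 94.7, 57.7 and 47.6, and 102.7 and 101.7, and the order of the groups was the same. In wild type cells 88 Olfr genes had a read with TSA and none with DMSO, and 23 the reverse. In TKO cells these numbers were 97 and 33. Between the genotypes, 46 genes had a read in TKO DMSO and none in wild type DMSO, and 25 the reverse. Few were seen in force, since of the 1058 genes without a read in wild type DMSO, which could not be lower elsewhere, at least 3 reads in both libraries of a group were reached by 5 with TSA in wild type, by 0 in TKO given DMSO and by 8 in TKO given TSA. The 5 were Olfr788, Olfr20, Olfr1196, Olfr699 and Olfr705, and the 8 were Olfr328, Olfr152, Olfr455, Olfr1349, Olfr690, Olfr691, Olfr699 and Olfr705. The great majority of the family therefore stayed below the limit of detection in every group. The same numbers were not taken over all genes, so these gains are a description only. Whether receptor genes gained reads more often than other genes with few reads was not tested.

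TSA in wild type cells raised 9 of the 39 members and lowered 3 (edgeR, adjusted p below 0.05), and 27 were not called. Over all genes tested, 24.2% were called higher and 23.4% lower. For the 3235 genes with a summed count of 10 to 99 these shares were 18.5% and 2.1%. Only 30 of the 39 members are in that class, here and in the comparisons below, and the other 9 had 100 reads or more. The members called higher, 23.1% of the 39, are near both backgrounds for higher calls. The members' median log2 fold change was 1.19, beside 0.04 over all genes tested and 0.94 over those with 10 to 99 reads. A rise of genes with few reads was thus common under TSA in these libraries.

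Olfr815, in the chromosome 10 array, rose with TSA in both genotypes. It had 1 and 1 reads with DMSO and 17 and 41 with TSA in wild type cells, and 0 and 0 with DMSO and 52 and 85 with TSA in TKO cells. Both TSA groups were above both DMSO groups. TKO TSA also lay above wild type TSA, but that difference was not called (log2 fold change 1.23 ± 0.42, ± SE, edgeR adjusted p = 0.0696). The ratio of TSA to DMSO was 24.3 in wild type (95% counting interval 6.44 to 205.7, edgeR adjusted p = 0.0011). In TKO the gene was at least 41.7-fold higher with TSA against a limit of 3 reads over the group (edgeR adjusted p = 3.36e-05).

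Olfr787 lies in the same array, with Olfr788 next to it 9.08 kb away on the same strand. Olfr787 had 0 and 1 reads with DMSO and 13 and 27 with TSA in wild type cells, and 4 and 1 with DMSO and 32 and 55 with TSA in TKO cells. TSA raised it 33.6-fold in wild type (5.69 to 1358, edgeR adjusted p = 0.00173), and in TKO by 3.92 ± 0.65 on the log2 scale (± SE, edgeR adjusted p = 0.000308). The TSA and DMSO libraries did not overlap in either genotype. Olfr788 had no read in the 4 DMSO libraries, 4 and 10 in wild type TSA and 2 and 16 in TKO TSA, which is at least 3.92-fold higher in wild type and at least 5.48-fold in TKO (edgeR adjusted p = 0.0387 and 0.019). Its 2 libraries of a TSA group differed widely, and in each genotype it was no longer called without replicate 2 of the TSA group or without either DMSO library.

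Olfr376, on chromosome 11, followed the same pattern with 1 and 1 reads with DMSO and 17 and 32 with TSA in wild type cells, and 2 and 2 with DMSO and 34 and 79 with TSA in TKO cells. The ratio was 20.6 in wild type (5.39 to 174.5, edgeR adjusted p = 0.00131). In TKO the log2 fold change was 4.60 ± 0.65 (± SE, edgeR adjusted p = 9.18e-05). Neither TSA group overlapped its DMSO group. Its nearest gene outside the family, the meiosis gene Spata22, ends 25.2 kb upstream on the same strand and rose with TSA in wild type by 1.29 ± 0.39 on the log2 scale (± SE, edgeR adjusted p = 0.0172). In TKO the log2 fold change of Spata22 was 0.28 ± 0.43 (± SE, edgeR adjusted p = 0.597), and the difference of its TSA effects between the genotypes, -1.01 ± 0.59, was not called (edgeR adjusted p = 0.5).

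Olfr699, Olfr881 and Olfr329-ps were nearly without reads in DMSO. Olfr699 had 0 and 0 reads with DMSO and 4 and 14 with TSA in wild type cells, and 1 and 0 with DMSO and 26 and 27 with TSA in TKO cells, at least 5.03-fold higher with TSA in wild type (edgeR adjusted p = 0.00832) and 48.4-fold in TKO (8.33 to 1949, edgeR adjusted p = 0.000588). Olfr881 had 0 and 1 reads with DMSO and 5 and 12 with TSA in wild type cells, and 0 and 0 with DMSO and 24 and 53 with TSA in TKO cells, with a ratio of 14.3 in wild type (2.24 to 596, edgeR adjusted p = 0.0284) and at least 23.5-fold in TKO (edgeR adjusted p = 0.000168). In both genes all TSA libraries exceeded all DMSO libraries. In wild type the call of Olfr699 was lost without replicate 2 of wild type TSA, and that of Olfr881 without that library, without replicate 1 of wild type DMSO, and in DESeq2.

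Olfr329-ps had 0 and 2 reads with DMSO and 4 and 9 with TSA in wild type cells, and 0 and 0 with DMSO and 33 and 57 with TSA in TKO cells. TSA raised it at least 27.4-fold in TKO (edgeR adjusted p = 8.22e-05), while in wild type its edgeR adjusted p was 0.09. The adjacent gene Olfr328 lies 6.37 kb upstream of it on the same strand. Olfr328 had no read in DMSO, 1 and 3 in wild type TSA and 5 and 15 in TKO TSA, a TSA effect in TKO of at least 6.09-fold (edgeR adjusted p = 0.00542). As with Olfr787 and Olfr788, adjacent genes in the same orientation had reads in the same libraries, and a transcript running through both was not tested.

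The remaining rises rested on few reads. Olfr705 and Olfr1196 had no read in any DMSO library and 9 reads each in wild type TSA, with 9 and 6 in TKO TSA. They were called in both genotypes by edgeR (adjusted p = 0.0244 and 0.0233 in wild type, 0.0187 and 0.041 in TKO), but in wild type both were lost without either DMSO library or without replicate 2 of TSA. In TKO both were lost without either DMSO library or without replicate 1 of TSA, and Olfr1196 also without either wild type TSA library and without a filter. DESeq2 did not call Olfr705 in either genotype (adjusted p = 0.121 and 0.0997) and gave no adjusted p for Olfr1196. Olfr31 had 1 and 17 reads in TKO DMSO and TKO TSA, a ratio of 15.5 (2.44 to 649.3, edgeR adjusted p = 0.0148). Olfr16, which encodes the lyral receptor MOR23, had no read with DMSO and 2 and 9 reads with TSA in TKO cells, which is higher by at least 3.35-fold (edgeR adjusted p = 0.0251). Olfr1259 had 3 and 1 reads with DMSO and 8 and 13 with TSA in TKO cells, a log2 fold change of 2.19 ± 0.75 (± SE, edgeR adjusted p = 0.0283). None of these last 3 was called without replicate 1 of TKO DMSO. Olfr31 was also lost without replicate 1 of TKO TSA, Olfr16 without replicate 2 of TKO DMSO, and Olfr1259 without that library or replicate 2 of TKO TSA. Without replicate 2 of TKO TSA, which held 9 of its reads, Olfr16 had too few reads to be tested. DESeq2 called neither Olfr31 nor Olfr1259 (adjusted p = 0.076 and 0.256) and gave no adjusted p for Olfr16.

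TSA in TKO cells raised 14 of the 39 members and lowered 4 (edgeR, adjusted p below 0.05), and 21 were not called. The background of all genes tested was 28.0% higher and 25.4% lower, and that of genes with 10 to 99 reads 21.4% and 5.1%. At 35.9% the members' share of higher calls was above both backgrounds, a difference that was not tested because the members were chosen by their reads. That share includes the 9 members with 100 reads or more, which lie outside the 10 to 99 class. The members' median log2 fold change was 1.95, beside 0.06 over all genes tested and 0.77 over those with 10 to 99 reads. TSA called 9 members higher and 2 lower in both genotypes, a description only, since the same share over all genes was not taken. Another 7 were called in TKO and not in wild type, and Olfr984 in wild type and not in TKO. For none of the 7 was the difference between the genotypes itself called, with edgeR adjusted p of the interaction from 0.307 to 1.

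The 14 members called higher with TSA in TKO tended to be higher in replicate 2 of the TSA groups. In wild type TSA, 12 were higher in replicate 2 and 1 in replicate 1. In TKO TSA these numbers were 9 and 5, and the same share over all genes was not taken. The summed level of the 14 was 10.6 and 16.6 CPM in the wild type TSA libraries and 30.9 and 37.2 CPM in the TKO TSA libraries. In the 4 DMSO libraries it was 1.1 to 2.88 CPM. The 14 were chosen by their rise in TKO, so a gap between TKO TSA and TKO DMSO follows from that choice.

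**Figure D3:**
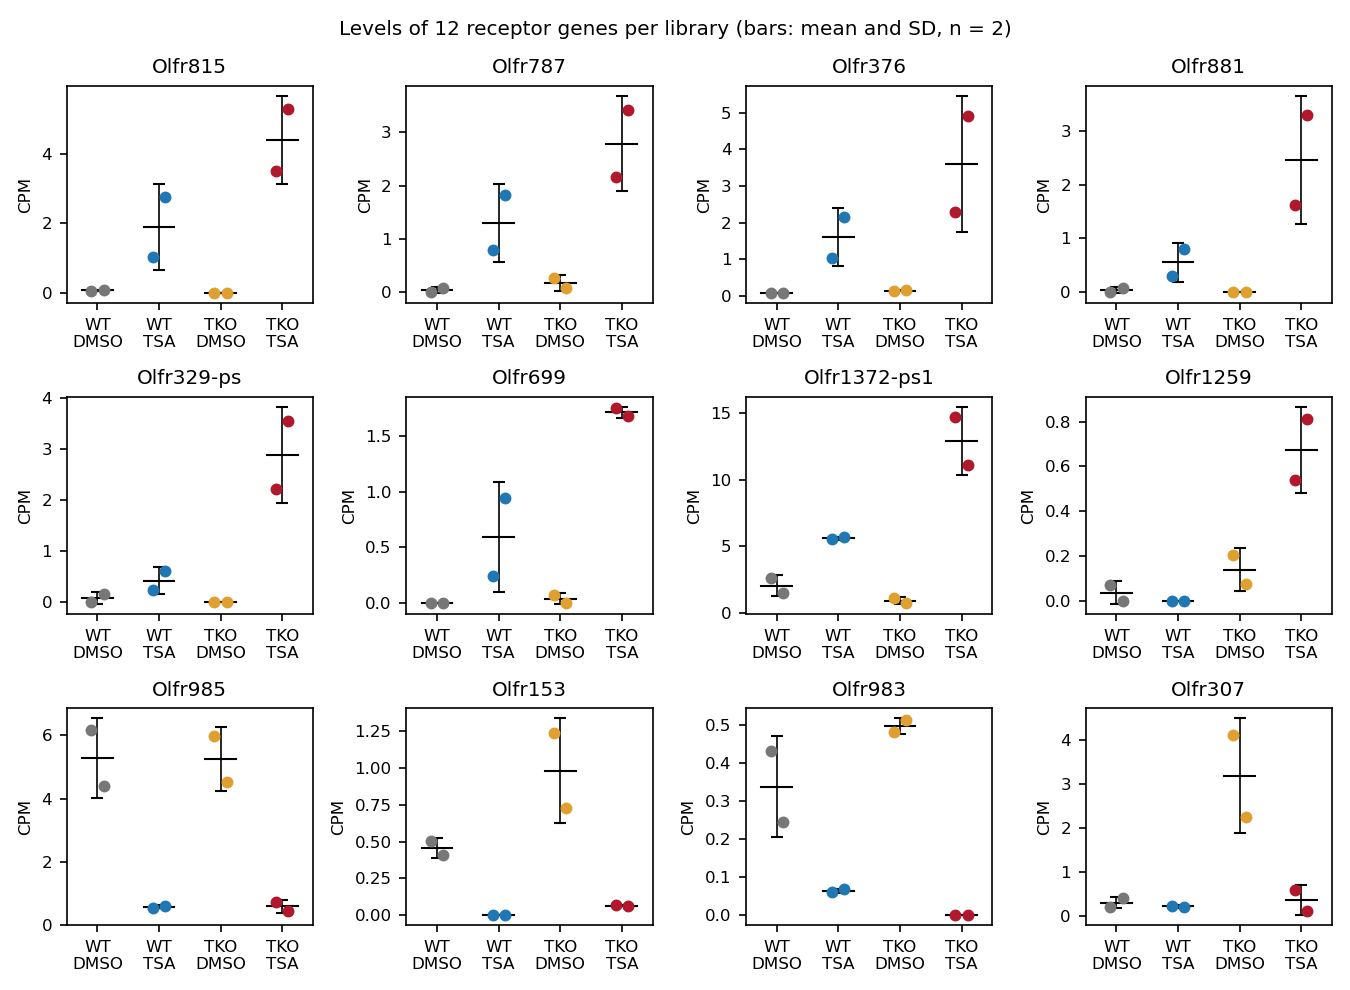
Levels of 12 receptor genes in CPM for the 4 groups, each point a library, with the mean and SD of 2 libraries. Olfr815 to Olfr699 are near 0 in DMSO and higher with TSA, Olfr985, Olfr153 and Olfr983 are lower with TSA, and Olfr307 stands out in TKO DMSO at 4.12 and 2.27 CPM.

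Receptor genes that fell with TSA were fewer, but a gene near 0 reads in DMSO could hardly be called lower. In wild type DMSO 11 members had no read and 13 had 1 to 3. The smaller number of falls is therefore partly fixed by where the reads lay. Olfr985, whose counts are given above, fell by 3.18 ± 0.37 on the log2 scale in wild type (± SE, edgeR adjusted p = 4e-05) and fell by 3.15 ± 0.37 in TKO (edgeR adjusted p = 2.29e-05). Olfr984 and then Olfr983 lie downstream of it on the same strand. The gaps are 25.4 kb between Olfr985 and Olfr984 and 6.99 kb between Olfr984 and Olfr983, with no other Olfr gene between them. Olfr983 had 6 and 3 reads with DMSO and 1 and 1 with TSA in wild type cells, and 7 and 7 with DMSO and 0 and 0 with TSA in TKO cells. Olfr984 had 5 and 3, 0 and 0, 5 and 3, and 1 and 0 reads in the same order of groups.

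All 3 neighbours were lower in every TSA library than in any DMSO library. Olfr983 was at least 5.11-fold lower with TSA in TKO (edgeR adjusted p = 0.00235) and Olfr984 at least 3.18-fold lower in wild type (edgeR adjusted p = 0.0155), the latter lost in DESeq2 (adjusted p = 0.0852), without replicate 1 of wild type DMSO and without either wild type TSA library. Olfr983 was not called in wild type, nor Olfr984 in TKO. These 3 genes were the only members among those of the chromosome 9 array that TSA lowered, and Olfr881, at the other end of the array, was the only one of its 8 members that TSA raised. A transcript running through the 3 genes was not tested.

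Olfr153, on chromosome 2, had 7 and 5 reads with DMSO and 0 and 0 with TSA in wild type cells, and 18 and 10 with DMSO and 1 and 1 with TSA in TKO cells. It was at least 4.77-fold lower with TSA in wild type (edgeR adjusted p = 0.00408) and 15.3-fold lower in TKO, with a ratio of 0.0653 (0.00754 to 0.259, edgeR adjusted p = 0.00135). The libraries of the TSA and DMSO groups did not overlap. Its nearest gene outside the family is Pramel6, a PRAME family gene, 21.2 kb upstream on the same strand. Pramel6 fell by 5.65 ± 0.81 on the log2 scale in wild type (± SE, edgeR adjusted p = 0.000155) and fell by 4.06 ± 0.51 in TKO (edgeR adjusted p = 4e-05), so both genes were lower with TSA in both genotypes. Both had their highest mean in TKO cells with DMSO, 4.47 CPM for Pramel6 and 0.984 for Olfr153, but neither was called against wild type there (edgeR adjusted p = 0.0586 and 0.189).

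**Figure D4:**
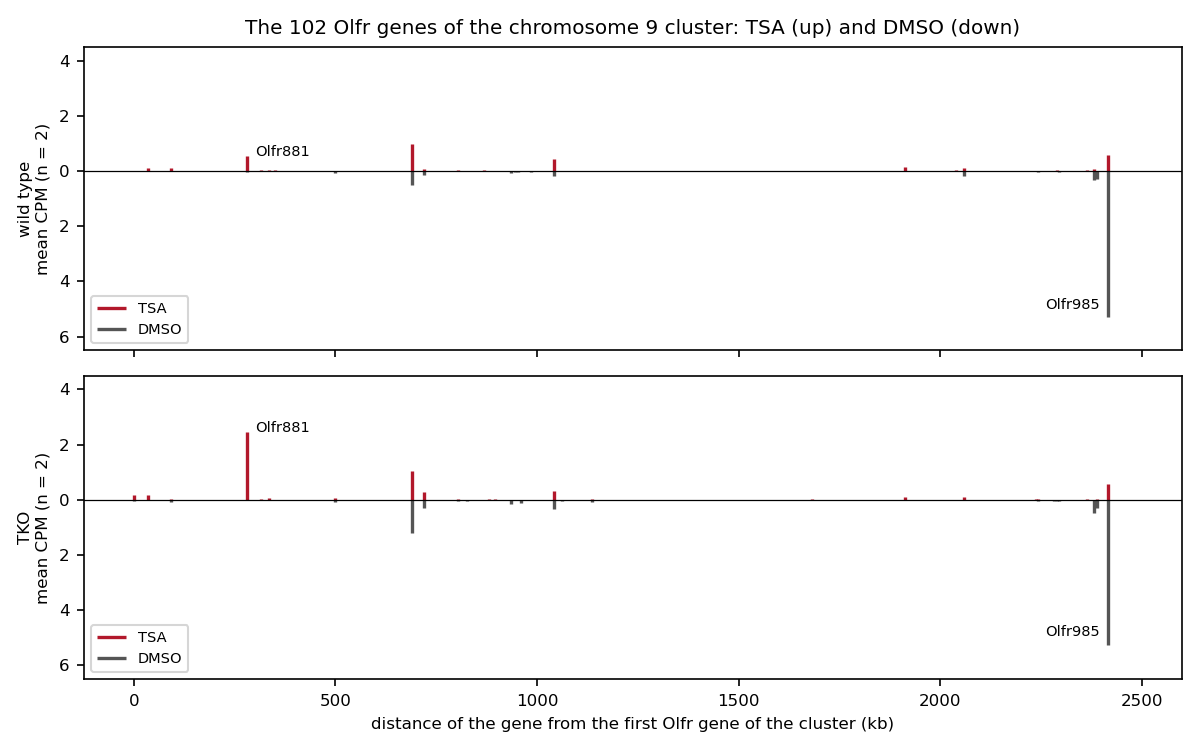
Mean CPM (n = 2) of the 102 Olfr genes in the chromosome 9 array, by distance in kb from its first Olfr gene, with TSA drawn upward and DMSO downward, in wild type (top) and TKO (bottom). Olfr985 near the right end has its signal in DMSO at 5.29 and 5.25 CPM, and Olfr881 near the left end has its signal in TSA.

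The TKO by itself, in DMSO, called 1 of 39 members, Olfr307, and none lower (edgeR, adjusted p below 0.05). Over all genes tested 8.39% were called higher and 9.36% lower, and of those with 10 to 99 reads 2.78% and 1.27%, so the members' 2.56% did not exceed the background. At an unadjusted p below 0.05 there were 2 members higher and 2 lower, and DESeq2 also called 1 higher and 0 lower. The members' median log2 fold change was 0.14, beside 0 over all genes tested.

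Olfr307, on chromosome 7, had 3 and 5 reads in wild type DMSO, 60 and 31 in TKO DMSO, 4 and 3 in wild type TSA, and 9 and 2 in TKO TSA. Only the TKO DMSO libraries were high. The TKO effect with DMSO was a log2 fold change of 3.35 ± 0.59 (± SE, edgeR adjusted p = 0.00201). In TKO cells given TSA the gene fell by 3.13 ± 0.55 on the log2 scale (± SE, edgeR adjusted p = 0.000478), and in wild type the log2 fold change was -0.44 ± 0.89 (± SE, edgeR adjusted p = 0.708). The difference of the 2 TSA effects, -2.70 ± 1.12, was not called (edgeR adjusted p = 0.315). With TSA present, TKO against wild type gave 0.66 ± 0.83 for Olfr307 (± SE, edgeR adjusted p = 0.646). This member thus had its reads in the methylation mutant without TSA, unlike Olfr815, Olfr376 and Olfr787, which were at 5 reads or fewer over that group.

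With TSA present in both genotypes, the TKO had 4 members higher and none lower (edgeR, adjusted p below 0.05), namely Olfr1372-ps1, Olfr329-ps, Olfr1259 and Olfr881. That is 10.3% of 39, beside 8.94% higher and 7.48% lower over all genes tested, and 4.14% and 1.92% of those with 10 to 99 reads. At an unadjusted p below 0.05, 11 were higher and 0 lower, and DESeq2 called 2 higher and 0 lower. Olfr329-ps was 2.77 ± 0.54 higher on the log2 scale (± SE, edgeR adjusted p = 0.00574), Olfr881 2.16 ± 0.55 (edgeR adjusted p = 0.0208) and Olfr1259, without a read in wild type TSA, higher by at least 7.08-fold (edgeR adjusted p = 0.00706). None of the 4 remained called without replicate 1 of wild type TSA, and 7 members were called without replicate 2 of that group. With a replicate block in the fit, 9 were called higher.

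Olfr1372-ps1, a pseudogene of chromosome 11 with the highest sum of the family, was the single member whose TSA effect differed between the genotypes. It had 36 and 18 reads with DMSO and 91 and 84 with TSA in wild type cells, and 16 and 10 with DMSO and 219 and 179 with TSA in TKO cells. The 4 groups did not overlap, with TKO DMSO the lowest and TKO TSA the highest. TSA raised it by 1.45 ± 0.30 on the log2 scale in wild type (± SE, edgeR adjusted p = 0.00181) and by 3.80 ± 0.32 in TKO (edgeR adjusted p = 2.36e-06). The difference of the effects was 2.35 ± 0.46 (± SE, edgeR adjusted p = 0.0314). Among all genes tested 0.836% were called higher for this interaction. The interaction was called in 1 of the 8 fits without a library, the one that left out replicate 2 of wild type DMSO.

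Its nearest gene outside the family is the microRNA gene Mir3061, 28.0 kb away on the other strand, at 0.324 to 1.05 CPM in the means of the 4 groups, with a log2 fold change for TSA of -1.31 ± 0.55 in wild type and -1.54 ± 0.58 in TKO (± SE, edgeR adjusted p = 0.0676 and 0.0399). The nearest upstream gene on the same strand, Tcf7, lies 94.7 kb away and had log2 fold changes for TSA of -0.01 ± 0.16 and -0.07 ± 0.16 (± SE, edgeR adjusted p = 0.966 and 0.728). Neither neighbour was called higher with TSA, as Olfr1372-ps1 was.

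TKO with TSA against wild type DMSO called 19 members higher and 5 lower (edgeR, adjusted p below 0.05). Beside it stood 29.3% higher and 27.4% lower over all genes tested, and 24.9% and 4.7% of those with 10 to 99 reads. At 48.7% the members' share of higher calls lay above both, and this comparison shares its libraries with the TSA and TKO comparisons above. Beyond the genes already described it called Olfr1349, Olfr690, Olfr691, Olfr658 and Olfr1277 higher and Olfr293 lower. Olfr690, Olfr691 and Olfr658 lie in the chromosome 7 array that holds the class I receptors, the fish-like branch of the family. Olfr690 and Olfr691 are 6.47 kb apart on the same strand and had no read in wild type DMSO and 9 and 7 in TKO TSA, at least 2.55-fold and 1.98-fold higher (edgeR adjusted p = 0.0184 and 0.0232).

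Olfr658 had 0 and 3 reads in wild type DMSO and 10 and 9 in TKO TSA, a ratio of 5.37 (1.58 to 28.4, edgeR adjusted p = 0.0465). Olfr1349 had no read in wild type DMSO and 5 and 9 in TKO TSA, higher by at least 3.96-fold (edgeR adjusted p = 0.00627), and Olfr1277, also without a read in wild type DMSO, had 2 and 7, higher by at least 2.55-fold (edgeR adjusted p = 0.0317). Olfr293 had 9 and 3 reads in wild type DMSO and 1 and 0 in TKO TSA, a ratio of 0.0707 (0.00165 to 0.478, edgeR adjusted p = 0.0458). Of these 6 genes, Olfr1349 stayed called without any 1 library and in DESeq2, and the other 5 were lost without replicate 1 of wild type DMSO and in DESeq2. The number of calls was 12 in place of 24 without replicate 1 of wild type DMSO, 14 without replicate 2 of TKO TSA, and 12 in DESeq2.

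**Figure D5:**
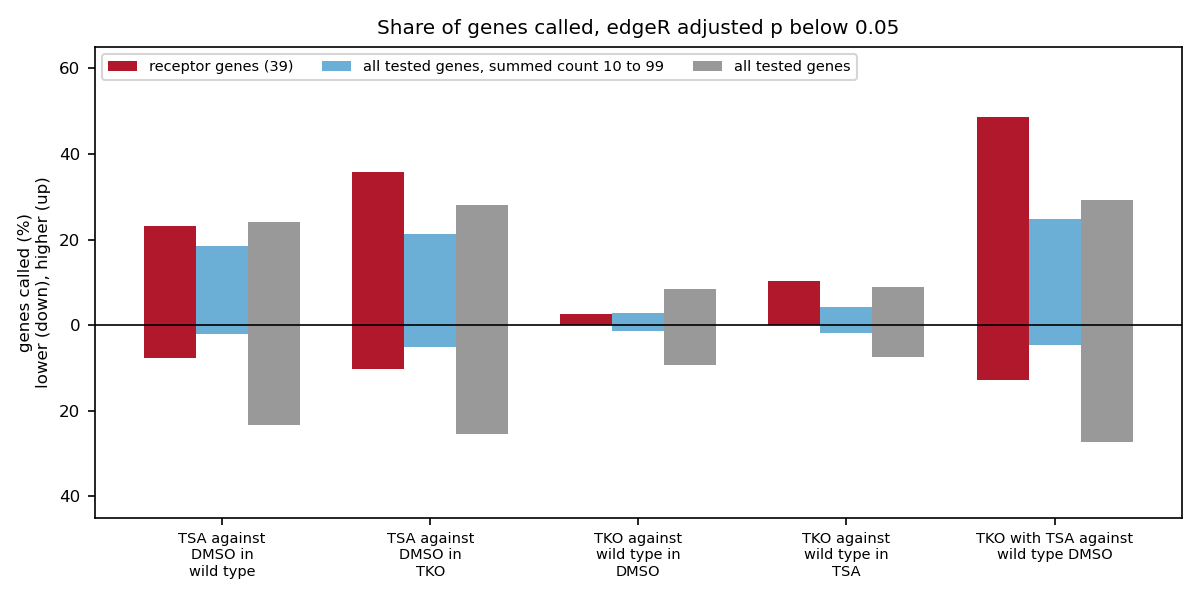
Percent of genes called higher (up) or lower (down) at an edgeR adjusted p below 0.05 in 5 comparisons, for the 39 receptor genes, all tested genes with summed counts of 10 to 99 and all tested genes. In wild type the members' 23.1% called higher with TSA is near the backgrounds of 18.5% and 24.2%, and in TKO 35.9% stands beside 21.4% and 28.0%. Of the 39 receptor genes, 9 had summed counts of 100 or more.

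Not every member with reads responded. Of the 39, 14 were called in none of these comparisons, a description only, since the same share over all genes was not taken. Olfr701, with 200 reads in all, had 30 and 11 reads with DMSO and 25 and 25 with TSA in wild type cells, and 33 and 17 with DMSO and 31 and 28 with TSA in TKO cells. The libraries with TSA and DMSO overlapped in both genotypes, and its log2 fold change for TSA was 0.05 ± 0.44 in wild type and 0.12 ± 0.42 in TKO (± SE, edgeR adjusted p = 0.935 and 0.829). Olfr147, on chromosome 9, had 5 and 8, 15 and 16, 30 and 5, and 21 and 11 reads in the same order of groups, with log2 fold changes for TSA of 0.99 ± 0.74 and -0.24 ± 0.62 (edgeR adjusted p = 0.289 and 0.763). Olfr920 and Olfr503 likewise had reads in all 8 libraries, 38 and 37 in all, and were not called.

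The members are spread over the genome. With gaps of over 1 Mb as borders, the 1122 Olfr genes formed 49 arrays on 17 chromosomes, and members were found in 19 arrays on 10 chromosomes. The chromosome 9 array (chr9:37711348-40188094) holds 102 Olfr genes, of which 36 had a read and 8 are members. The class I array (chr7:102476773-105369317) holds 124, of which 17 had a read and 3 are members. Chromosome 10's array (chr10:128989914-130211128) holds 56, of which 15 had a read, and its summed count was 5 with DMSO and 117 with TSA in wild type, and 6 with DMSO and 261 with TSA in TKO. Reads thus appeared at separate genes within arrays, not along whole arrays.

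Most members lie far from other genes. The median distance to the nearest gene outside the family was 67.0 kb, 1 member lay within 10 kb and 17 at over 100 kb. The nearest gene to Olfr815 was Neurod4 at 365.4 kb, with 11 reads in all, and for Olfr787 Mettl7b at 501.7 kb, which rose with TSA by 3.93 ± 0.74 on the log2 scale in wild type (± SE, edgeR adjusted p = 0.00103). For Olfr985 it was Tmem225 at 20.1 kb with 3 reads in all, for Olfr699 Gm10081 at 314.9 kb with none, and for Olfr881 Panx3 at 323.3 kb with 3. Of the 14 members raised by TSA in TKO, 3 had a nearest upstream gene on the same strand that was also called higher. It was Itga7 for Olfr787 and Olfr788, at 504.4 and 514.4 kb, and Siae for Olfr881, at 344.2 kb. The upstream gene of Olfr16, Olfr328, Olfr329-ps, Olfr699, Olfr705, Olfr1196 and Olfr1259 had fewer than 10 reads and was not tested. Over all genes tested 28.0% were called higher in that comparison. That share covers tested genes only, so it is not a like background for the 3 of 14.

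Of 4 other chemoreceptor families, 3 had higher sums with TSA in both genotypes. The 206 vomeronasal receptor genes named Vmn1r summed to 1.77 ± 0.37 CPM with DMSO and 5.48 ± 1.99 with TSA in wild type cells, and 3.24 ± 0.86 with DMSO and 8.96 ± 1.33 with TSA in TKO cells (SD, n = 2). The 122 Vmn2r genes summed to 3.02 ± 0.101, 6.09 ± 0.677, 3.58 ± 1.35 and 11.4 ± 1.01 CPM in the same order. TSA libraries did not overlap DMSO libraries in either family and genotype, with ratios of 3.10 and 2.77 for Vmn1r and 2.02 and 3.19 for Vmn2r. The 35 bitter taste receptor genes (Tas2r) summed to 1.0, 2.36, 2.69 and 3.60 CPM in the same order, with TSA above DMSO without overlap in both genotypes. The 15 trace amine receptor genes (Taar), none with 10 reads, were at 0, 0.0912, 0.14 and 0.096 CPM, and the TSA and DMSO libraries overlapped. Beside them stand the Olfr ratios of 1.65 and 2.44, and the differences between families were not tested.

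Of the genes that carry the odorant signal, 15 of a list of 19 could be tested. TSA raised 6 and lowered 1 in wild type and raised 7 and lowered 2 in TKO (edgeR, adjusted p below 0.05), beside 24.2% higher and 23.4% lower in wild type and 28.0% and 25.4% in TKO over all genes tested. Gnal, the G protein alpha subunit coupled to olfactory receptors, rose by 1.98 on the log2 scale in wild type and 1.71 in TKO (edgeR adjusted p = 4.57e-05 and 4.28e-05). Ano2, the calcium-gated chloride channel of the cilia, rose by 4.23 and 2.21 (edgeR adjusted p = 0.000278 and 0.00306), and Pde1c, a phosphodiesterase, by 1.55 and 1.48 (edgeR adjusted p = 0.00103 and 0.000656). Adcy3, the cyclase, rose by 0.51 and 0.63 (edgeR adjusted p = 0.0146 and 0.0034), and Reep1, a receptor transport gene, by 1.23 in wild type (edgeR adjusted p = 0.000108). Ric8b, whose product assists the olfactory G protein, fell by 0.50 in both genotypes (edgeR adjusted p = 0.0062 and 0.0053), and the phosphodiesterase gene Pde4a fell by 0.71 in TKO (edgeR adjusted p = 0.00432). The channel subunit gene Cnga2 had 1 read in all and the receptor transporter gene Rtp1 had 2, so the signalling cascade was not present as a whole. Median log2 fold changes of the list were 0.13 and 0.11, and the TKO alone had 2 higher and 2 lower with DMSO, including Reep1 at 1.17 and Cngb1 at -0.96 (edgeR adjusted p = 0.000543 and 0.0119).

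Of 16 genes known for the choice and silencing of receptor genes, TSA raised 2 and lowered 6 in wild type and raised 5 and lowered 8 in TKO (edgeR, adjusted p below 0.05), with median log2 fold changes of -0.26 and -0.39, beside the same shares over all genes and medians of 0.04 and 0.06. Cbx5, which encodes the heterochromatin protein HP1 alpha, fell by 1.30 on the log2 scale in wild type and fell by 1.78 in TKO (edgeR adjusted p = 1.07e-05 and 7.08e-07). Ldb1, cofactor of Lhx2 at receptor enhancers, fell by 0.95 and 0.88 (edgeR adjusted p = 7.2e-05 and 7.64e-05). Ebf3 rose by 3.00 in wild type (edgeR adjusted p = 0.00128) and Lhx2 by 2.25 in TKO (edgeR adjusted p = 0.00107). In TKO, Suv39h1, a histone H3 lysine 9 methyltransferase, rose by 1.06 and the demethylase gene Kdm1a fell by 0.56 (edgeR adjusted p = 0.000121 and 0.000651). In DMSO the TKO raised Eif2ak3 by 0.45 and lowered Suv39h1 by 0.77 (edgeR adjusted p = 0.00673 and 0.00483).

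Markers of other cells were read beside these values. In bulk RNA, more cells of a type and more RNA per cell cannot be told apart. The 10 olfactory neuron markers summed to 30.0 to 33.5 CPM with DMSO and 23.0 to 25.1 with TSA in wild type cells. In TKO cells they summed to 13.6 to 15.4 with DMSO and 7.14 to 8.66 with TSA. The sums were mostly Gap43, with a mean of 27.9 CPM in wild type DMSO, and Omp was at means of 1.38 to 2.23 CPM. Single markers often went the other way. Of the 7 that could be tested, TSA called 3 higher and 1 lower in each genotype (edgeR, adjusted p below 0.05). Over all genes tested the shares were 24.2% higher and 23.4% lower in wild type, and 28.0% and 25.4% in TKO. Of 5 sustentacular cell markers Cyp2g1 had no read in any library. The sums were 0.976 to 1.08 CPM with DMSO and 2.067 to 2.095 with TSA in wild type cells. For TKO cells they were 1.855 to 2.192 with DMSO and 2.22 to 4.36 with TSA. The 8 spermatid markers, of a cell type that also expresses receptor genes, summed to 0.288 to 0.325 CPM with DMSO and 2.92 to 5.07 with TSA in wild type cells, and 0.275 to 0.585 with DMSO and 8.76 to 9.59 with TSA in TKO cells. Nearly all of that was Spaca1, while Prm1 and Acrv1 had no read in any library. The 7 fibroblast markers summed to 34.9 to 42.4, 72.0 to 87.7, 17.0 to 18.5 and 40.6 to 62.3 CPM in the same order. TSA called 4 of these 7 higher and 2 lower in wild type, and 6 higher and 1 lower in TKO. The part of these cell types, and of the lower stem cell markers under TSA, in the receptor counts was not tested.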

How the data were processed

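The authors deposited raw gene counts of 8 RNA-seq libraries in 1 table, with exon coordinates, strand and each gene's exon length in bases, used as deposited. Per the labels' protocols, total RNA was DNase-treated, depleted of ribosomal RNA, made into strand-directional libraries and sequenced as paired reads. The submitters' processing notes name mm10, TopHat2 2.0.13, featureCounts 1.4.5-p1 and edgeR 3.22.3. Whether counting used the strand, and how it treated reads with several matches, is not given in the sources used here.

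The groups come from the titles of the libraries. Genes with a summed count of at least 10 (17936 of 23420) entered the test, edgeR 4.0.16 under R 4.3.3, with TMM factors, 1 quasi-likelihood fit of 4 group means with 4 residual degrees of freedom, two-sided tests and Benjamini-Hochberg adjustment over all genes tested. The 6 contrasts were the TSA effect within either genotype, the TKO effect within either treatment, both together against wild type DMSO, and the interaction, in which the wild type TSA effect was subtracted from that of TKO. Standard errors are approximate, from each F statistic and its fold change. The common biological coefficient of variation was 10.3%. The chi-square per degree of freedom between the 2 libraries of a group was 5.28 to 12.2 over all genes, so each library was counted as a replicate. RPKM divide CPM by exon length in kilobases. Ratios of group counts have exact 95% intervals that cover counting error only, and a fold against a group without reads is a lower bound against 3 reads over the group. The script was tested on simulated data first.

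Genes named are members called in any contrast, the 10 of highest sum, those at the threshold, the nearest genes outside the family, and up to 5 called genes per pathway list and contrast. The members and lists were chosen with earlier results of these data known. Gene start windows and motifs come from the RefSeq table of GRCm38.p6 (Python 3.11.15, pandas 2.3.3, SciPy 1.17.1). Protein sequences were not used here. Alternatives tried were DESeq2 1.42.0, the filterByExpr filter, no filter, total counts or upper quartile factors for scaling, a replicate block, fits of 2 groups alone, and leaving out each library.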

Additional observations from a re-analysis of the deposited data

Results flagged for a closer look

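Olfr1372-ps1 stood out because its response to TSA differed between the genotypes by a test, with a difference of 2.35 on the log2 scale (edgeR interaction, adjusted p = 0.0314), a call kept in 1 of the 8 fits without a library. The same gene was lower in TKO than in wild type with DMSO and higher with TSA, in every library (54 against 26 reads, then 175 against 398), and the same difference of 2.35 applies. With DMSO the TKO effect was not called (log2 fold change -1.15, edgeR adjusted p = 0.0598).

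In 3 further members the libraries of 1 comparison lay on opposite sides in the 2 settings, but in each of them 1 side rests on groups of at most 3 reads, the limit that a count of 0 allows, so no direction can be read there. The fitted differences depend on groups without reads, and edgeR did not call them. Olfr815 had 2 reads in wild type and 0 in TKO with DMSO, and 58 and 137 with TSA, with a fitted difference of 4.53 on the log2 scale (edgeR interaction adjusted p = 0.461). Olfr983 had 9 and 14 reads with DMSO and 2 and 0 with TSA, with a fitted difference of -3.61. Olfr968 had 5 reads with DMSO and 4 with TSA in wild type, and 0 and 3 in TKO, with a fitted difference of 4.17.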

How the results depend on the processing

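Of 60 calls of members in the 6 contrasts, none changed direction in any alternative fit. Unchanged calls were 35 of 35 that the filterByExpr filter still tested, 57 of 60 without a filter, 58 of 60 with total counts as the only scaling and with upper quartile factors, 47 of 47 in fits of the 2 groups compared, 37 of 56 in DESeq2, which gave no adjusted p for 4, and 389 of 472 in fits without 1 library. Every fit kept 6 of 12 calls for TSA in wild type (Olfr787, Olfr815, Olfr1372-ps1, Olfr376, Olfr153 and Olfr985), 10 of 18 for TSA in TKO, 1 of 1 for TKO in DMSO (Olfr307), 0 of 4 for TKO in TSA, 8 of 24 for TKO with TSA against wild type DMSO, and 0 of 1 for the interaction. Total counts as the only scaling moved the median log2 fold change of all genes for TSA from 0.04 to 0.26 in wild type and from 0.06 to 0.22 in TKO.

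The numbers of calls that moved by over 1.5 times were these. The filterByExpr filter, which tests 13 members, gave 11 for TSA in TKO and 10 for TKO with TSA against wild type DMSO. DESeq2 gave 2 for TKO in TSA and 12 for TKO with TSA against wild type DMSO. Without a filter there were 2 for TKO in DMSO. Replicate numbers correlated at 0.062 to 0.233 between groups, which with 2 pairs a comparison does not establish pairing, and with the replicate number as a block 2 were called for TKO in DMSO and 9 for TKO in TSA, the other numbers staying within 1.5 times.

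Leaving out 1 library gave 6 to 12 calls for TSA in wild type, 12 to 18 for TSA in TKO, 1 to 2 for TKO in DMSO, 0 to 7 for TKO in TSA, 12 to 23 for TKO with TSA against wild type DMSO, and 0 to 1 for the interaction. The ratio of the summed Olfr level ran from 1.39 to 2.04 for TSA in wild type, 1.96 to 3.21 for TSA in TKO, 1.01 to 1.65 for TKO in DMSO, 1.70 to 2.30 for TKO in TSA and 2.71 to 3.99 for both. Single libraries had reads for 38 to 52 (DMSO) and 82 to 96 (TSA) Olfr genes in wild type, and 50 to 63 (DMSO) and 107 to 108 (TSA) in TKO. With at least 3 counts required the means were 13.5, 27, 17.5 and 35 genes in this order, and at the smallest library total TKO TSA had 102.2. The cause of these shifts was not tested. At 10 to 99 reads over 8 libraries many calls rest on few reads, and 83 of the 472 calls refitted without 1 library were lost. The 472 are pairs of a call and a fit. They include fits without a library outside the comparison, and leave out fits in which the member was not tested. The share lost therefore understates how often a call depended on a library of its own groups.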
